A study of Caenorhabditis elegans with 4 samples.

Results

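The X chromosome carried 589 of the 4966 ChIP peaks in the combined EFL-1 list. They are all lines of that list placed on X, chosen by chromosome alone and not by strength. The list comes from chromatin immunoprecipitation followed by sequencing (ChIP-seq) of Caenorhabditis elegans larvae at the first larval stage (L1). All animals were hermaphrodites of strain MT10430, which carries lin-35(n745), and the stage label adds the tag 26dC although the stated growth temperature was 20 °C. Of the 4 samples, 2 were EFL-1 ChIP samples, made with a rabbit polyclonal antibody against EFL-1 per their descriptions (the general protocol text speaks of antibodies against GFP and RNA polymerase II), and 2 were their inputs, which were not analysed here. Every sample carries the lin-35 mutation, so the X sites described here are sites in mutant larvae and were not compared with animals that have intact lin-35. Whole larvae were used, so the tissue in which a site was bound is not resolved.

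EFL-1 is a worm E2F transcription factor. With its partner DPL-1, the pocket protein LIN-35 and the MuvB proteins it forms the DREAM complex, which keeps cell cycle genes and germline genes repressed in somatic cells. The X chromosome differs from the autosomes in ways that bear on its gene content: hermaphrodites carry a pair of X chromosomes that the dosage compensation complex coats and turns down in somatic cells, the X is largely silent in the germline, and germline-expressed genes are scarce on it. Autosomes are known to be divided into a gene-dense centre and arms that recombine often and are rich in repeats and heterochromatin, a contrast that is weaker on X. These statements are background and were not measured here.

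Each peak is given by its position in WormBase build WS220, by its number in the combined list, where 1 is the strongest site, and by the number of the peak that overlaps it in each replicate's own list. The replicate lists held 3265 X peaks in replicate 1 and 3346 in replicate 2. Read counts and enrichment are not in the lists, so depth is unknown and a single site has no error of its own. Whether the replicates are separate cultures is not stated. Genes at the sites were not analysed here, because the gene table at hand is of another build (WBcel235).

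X sites had high peak numbers, that is, low ranks. The strongest was peak 87 of the combined list, and X held 1 of the first 100 peaks, 9 of the first 250 and 21 of the first 500. The median X site was peak 2960 (quartiles 1750 and 3988), against peak 2422 (1176 and 3681) for the 4377 autosomal sites. By density, X had 33.2 sites per Mb, near the 35.1 per Mb of chromosome V and below the 53.0 per Mb of the autosomes together. The X sites covered 172 kb once overlaps were merged.

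EFL-1 sites on every autosome were concentrated in the middle of the chromosome, and on X no such concentration was found. When X was cut into 3 equal parts of its 17.7 Mb, the left part held 189 sites (32.0 per Mb), the middle part 180 (30.5 per Mb) and the right part 220 (37.3 per Mb). The left part held 32.1% of X sites (exact 95% interval 28.3 to 36.0%) and the right part 37.4% (33.4 to 41.4%). Of the intervals on X, that of the right part alone lies above an even share, and only just. It is not adjusted and treats neighbouring peaks as independent, and no test was run on it. The interval for the right part of II (36.9%, 33.7 to 40.3%) also lies above an even share. The middle part thus held 30.6% of X sites (exact 95% interval 26.9 to 34.5%), where an even spread would have put 196 of them. That difference did not pass a two-sided exact binomial test (adjusted p = 0.162 over 6 chromosomes). On the autosomes the middle part held more than its length would give, from 38.5% on IV (35.2 to 41.9%, adjusted exact p = 0.00205) to 41.4% on V (37.8 to 45.0%, adjusted exact p = 3.28e-05). Between these lay chromosomes II with 38.9%, III with 39.2% and I with 39.8%, each past the threshold in the same exact test.

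**Figure D1:**
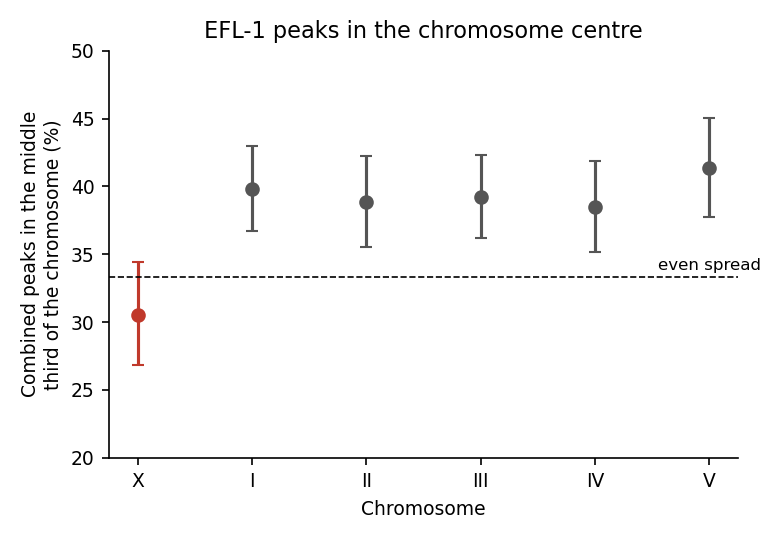
Share of combined EFL-1 peaks whose centre lies in the middle of 3 equal parts of each chromosome (percent, y axis), with exact 95% intervals as bars; the dashed line is an even spread. X, at 30.6%, is the one chromosome whose interval includes the line, and all 5 autosomes lie above it.

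The difference between X and each autosome was tested directly. The share on X minus that on each autosome was -9.23 percentage points for I, -8.31 for II, -8.67 for III, -7.93 for IV and -10.8 for V, with Fisher exact p-values adjusted over the 5 autosomes of 0.000564, 0.00166, 0.000867, 0.00202 and 0.000286 in that order. Chromosome V is the closest match to X in density, and it showed the widest difference of the 5. These tests treat peaks as independent, which neighbouring peaks are not, so the p-values may be too small. With all peaks within 10 kb of each other counted once, X had 29.9% in the middle part, against 39.3% on IV and 42.1% on V, where the difference still passed (adjusted Fisher exact p = 0.0150 and 0.00200). In that count the differences from I (-5.47 points), II (-7.33) and III (-6.58) no longer passed (adjusted Fisher exact p = 0.104, 0.0564 and 0.0642), and the shares of these autosomes themselves, 35.3%, 37.2% and 36.4%, no longer passed the binomial test (adjusted exact p = 0.377, 0.205 and 0.219). Among the stronger 50% of the combined list the call was also lost against II (-4.01 points, adjusted Fisher exact p = 0.304) and IV (-7.44 points, 0.0776), while I, III and V kept it. In the full list of replicate 1 the differences were smaller, from -8.48 points (V) to -3.40 (IV), and in that of replicate 2 they ran from -7.29 (V) to -2.87 (IV). All of these passed, with IV the nearest to the threshold (adjusted Fisher exact p = 0.00297 in replicate 1 and 0.0119 in replicate 2). In the stronger 50% of the combined list the shares of II (34.8%) and IV (38.2%) also missed the threshold of the binomial test (adjusted exact p = 0.538 and 0.0511).

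No difference by strength in the share of X sites in the middle part passed a test. Of the 295 strongest X sites, 93 (31.5%) lay in the middle part, against 87 of the 294 weaker ones (29.6%; odds ratio 1.10, two-sided Fisher exact p = 0.655), and with the strongest 148 sites set against the rest the odds ratio turned to 0.80 (p = 0.304). Between the sides of X, the 295 strongest had 84 sites on the left and 118 on the right, and the weaker ones 105 and 102. That difference did not pass a test added after the counts were seen (odds ratio 1.45, two-sided Fisher exact p = 0.0742). The strongest 148 X sites, down to peak 1750, had 44 on the left, 40 in the middle and 64 on the right. The weakest 147, from peak 3995 on, had 56, 36 and 55. Median peak numbers were 3112 in the left part, 2872 in the middle and 2822 in the right.

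Counts of sites along X varied less than on any autosome by variance over mean and by their highest over lowest. By the coefficient of variation this held with 1 Mb bins, but not with 250 or 500 kb bins. With X cut into 10 equal parts, a part held from 49 to 77 sites, a ratio of 1.57, whereas the same ratio was 1.77 on I, 1.95 on III, 2.05 on IV, 2.29 on II and 3.73 on V. The 2 fullest were adjacent, part 8 with 77 sites and part 9 with 73, and the emptiest was part 4, with 49. Over 500 kb bins X averaged 16.7 ± 4.41 sites (SD, n = 35 bins), from 10 to 27. Its fullest bin, from 13.5 to 14 Mb, had 27 sites, and its emptiest, with 10 each, were the first bin, the bin from 3.5 to 4 Mb and the bin from 17 to 17.5 Mb.

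The variance of the counts per 500 kb bin over their mean, which equals 1 for independent, even placement, was 1.17 on X and between 2.14 (IV) and 3.31 (II) on the autosomes. With 250 kb bins the X value was 1.28 and with 1 Mb bins 1.24. The coefficient of variation gave another order. At 500 kb it was 0.264 on X, the same as on III, and from 0.273 to 0.397 on the other autosomes. At 250 kb it was 0.393 on X, above I (0.335), III (0.323) and IV (0.376) and below II (0.401) and V (0.513). At 1 Mb it was 0.192 on X and from 0.215 to 0.349 on the autosomes. No test was run on these measures, because neighbouring bins are not independent, and the part of density in them was not tested.

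**Figure D2:**
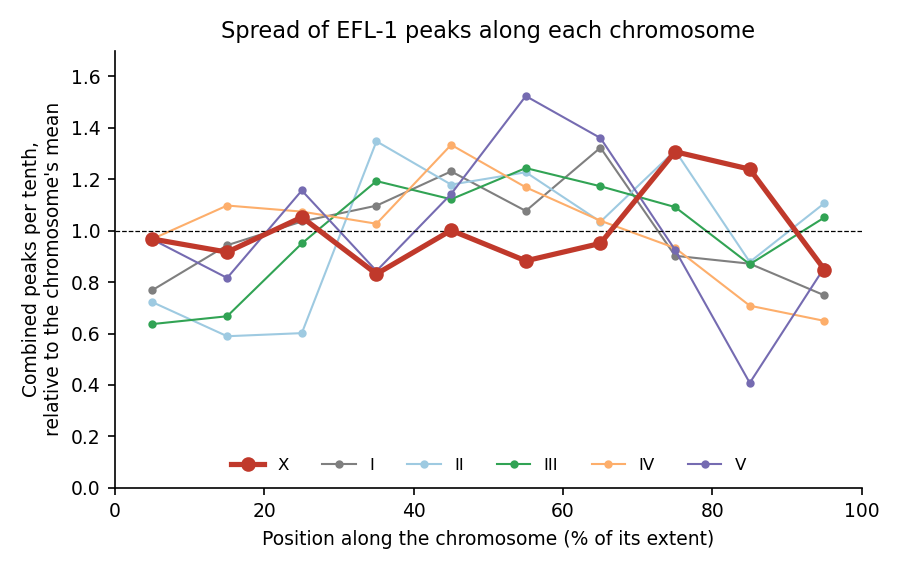
Combined EFL-1 peaks in each of 10 equal parts of a chromosome, divided by that chromosome's mean per part (y axis), against position as percent of the chromosome's extent (x axis). X (thick line) runs from 0.83 to 1.31 with its maximum in part 8, while V spans 0.41 to 1.52.

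Both ends of X held fewer sites than its average. The first site lay at 104816 to 105085 (peak 2306) and the next began at 324033 (peak 2026). The last was at 17610410 to 17610644 (peak 964), 104 kb before the end of the extent. The first 500 kb held 10 sites and the last 500 kb 12, against a mean of 16.6 per 500 kb on X. The autosomes varied in this: I had 28 and 37 against a mean of 32.4, II 24 and 28 against 27.2, IV 26 and 28 against 24.2, V 16 and 28 against 17.6, and III 23 and 37 against 35.9. Inside X some bins of 500 kb held as few, with 10 sites from 3.5 to 4 Mb and 12 from 8.5 to 9 Mb. No test was run on the ends.

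The 15 strongest X sites, peaks 87 to 381 of the combined list, were all present in both replicates. The same held for 585 of all 589 X sites, and a list made by combining the replicates gives no independent test of it. Of the 15, 7 lay in the left part, 2 in the middle and 6 on the right. Their widths ran from 263 to 663 bp, and 13 of the 15 overlapped exactly 1 peak in each replicate list. The strongest site, at X from 14101940 to 14102298, had number 103 in replicate 1 and 73 in replicate 2. It stood in a cluster of 3 sites that spanned 6.24 kb, but its neighbours there were weak (peaks 3426 and 4386).

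The second strongest, at X from 4222607 to 4223269, was 663 bp wide, with number 186 in replicate 1 and 58 in replicate 2. It covered 2 peaks of replicate 1 and 1 of replicate 2, and only 1 interval on X, listed under a pair of numbers, was wider. It had the largest gap between replicate numbers of the 15, by 3.21 times.

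Peak 127 and peak 157 were both in the left part. Peak 127, at 2242828 to 2243122, was number 119 in replicate 1 and 151 in replicate 2. Peak 157, at 2402015 to 2402277, was number 130 in replicate 1 and 194 in replicate 2, and at 263 bp it was the narrowest of the 15.

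Peak 166, at 5841089 to 5841425, was number 122 in replicate 1 and 199 in replicate 2. It sat just inside the left part, and the next site to its right was 100762 bp away. Peak 172, at 1446782 to 1447133 (numbers 201 and 144 in replicates 1 and 2), headed a cluster of 4 sites that is described with the clusters. Peak 203, at 4388838 to 4389203, had nearly the same number in both replicates, 202 and 197.

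The middle part was represented by peak 237, at 7823103 to 7823417 (number 206 in replicate 1, 274 in replicate 2), and by peak 366, at 6092012 to 6092275 (381 and 353). Both lay left of the midpoint of X. The next X sites by strength in the middle part were peak 463, at 10766073 to 10766469, and peak 490, at 6296300 to 6296767.

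On the right, besides the strongest X site, were 5 more. Peak 247 was at 13700582 to 13700999 (number 292 in replicate 1, 221 in replicate 2). Peak 296 was at 14841026 to 14841374 (264 and 325) and peak 381 at 14818735 to 14819114 (560 and 266), with weaker X sites between them. In the left part, peak 289 was at 4190588 to 4190900 (258 and 310), with weaker X sites between it and peak 117. Peak 338 was at 15841066 to 15841329 (363 and 302), and peak 324, at 16929425 to 16929881 (285 and 373), was the site of the 15 nearest to an end of X. Across the 15, 7 ranked higher in replicate 1 and 8 in replicate 2.

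**Figure D3:**
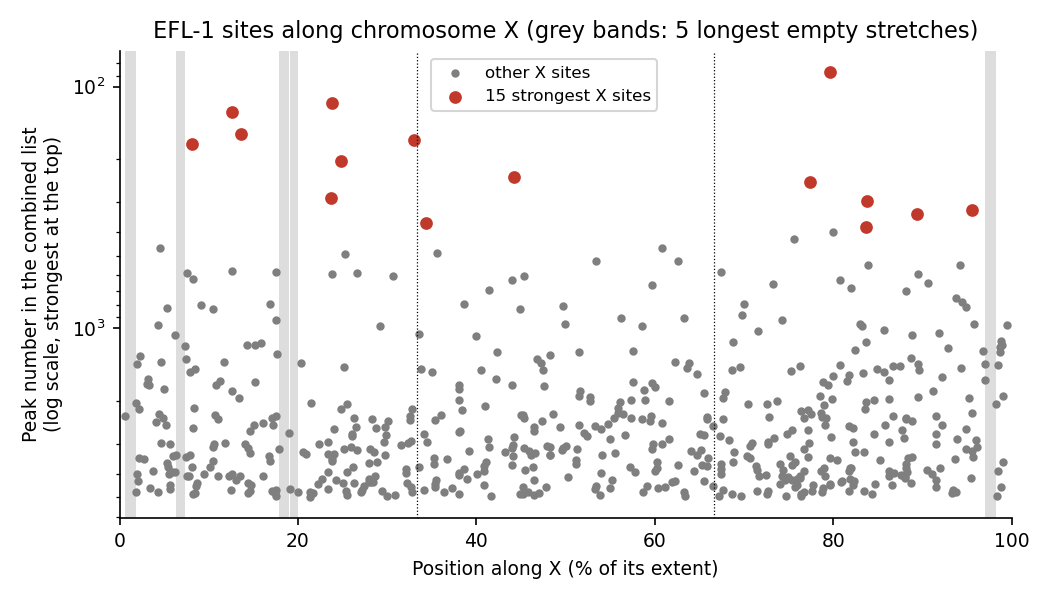
Each point is a combined EFL-1 site on X, by position (percent of the extent, x axis) and number in the combined list (y axis, log scale, strongest at the top); red points are the 15 strongest sites, grey bands the 5 longest empty stretches and dotted lines the limits of the 3 parts. Of the red points, 7 lie left, 2 in the middle and 6 right, and weak sites fill all 3 parts.

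Most X sites stood alone at a limit of 5 kb, but not at 10 kb. When sites with a gap of at most 5 kb were chained, 344 of the 589 (58.4%) had no partner, 70 chains were pairs and 30 held 3 or more sites. Those 30 chains held 105 sites, or 17.8% of X sites. On chromosome V, of like density, 45 chains of 3 or more held 21.2% of sites, and on III, the densest, 85 chains held 31.9%. Sites without a partner made up 51.8% on V and from 40.8% (I) to 44.2% (IV) on the other autosomes. With a limit of 10 kb, 252 X sites (42.8%) had none, against 34.6% on V. Counts of sites in chains rise with density, and no test was run. Of the 30 chains on X, 8 lay in the left part, 10 in the middle and 12 on the right.

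The chain with the most sites had 6, at X from 6737634 to 6744022, a span of 6.39 kb. Its members were peaks 1712, 1778, 1987, 2683, 3948 and 4043, none of them among the 1000 strongest. The replicates differed most at peak 3948, which was number 7974 in replicate 1 and 2520 in replicate 2, and at peak 4043, which was number 3332 in replicate 1 and 5569 in replicate 2.

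A further 3 chains had 5 sites each. The chain at 3099910 to 3112091 contained the strongest of these members, peaks 585 and 926, beside peaks 2304, 4657 and 4949. At 15274187 to 15281432 the members were peaks 1641, 1952, 2939, 3880 and 4072, and at 6250216 to 6255916 they were peaks 2390, 3445, 3655, 4391 and 4545. In the last of these, peak 4391 was number 3222 in replicate 1 but 11347 in replicate 2. The chain headed by peak 172, at 1446782 to 1457056, had 4 sites, and it paired a site of the top 15 with peak 622 and the weak peaks 2578 and 4845. X had 6 chains of 4 sites, and this one is given because it holds the strongest peak among them.

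Sites close to each other included 9 X peaks that overlapped the one before. In 3 places the combined list gave the same interval under a pair of numbers. These were 2996869 to 2997380 (peaks 790 and 3541), 11605639 to 11606109 (peaks 1845 and 4283) and 17479658 to 17480341 (peaks 1195 and 1252). The last is the widest X interval at 684 bp, and it overlapped 3 peaks in replicate 1 but 1 in replicate 2. With all overlaps merged, X had 580 separate regions. Of these, 230 (39.7%, exact 95% interval 35.6 to 43.8%) had another within 5 kb, against 47.4% on V and 58.7% on III. Such a neighbour counts for both regions, so the regions are not independent and the interval may be too narrow. The share also rises with density, and no test was run between the chromosomes.

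X had the widest median gap between sites of the 6 chromosomes, but its longest gap was shorter, relative to its own mean gap, than on any autosome. The median gap between neighbouring regions was 18.2 kb on X (quartiles 5.22 and 39.8 kb), against 13.8 kb on V and 8.00 kb on III. Gaps over 100 kb numbered 34 and made up 25.8% of X, against 41 gaps and 31.3% of V and 4 gaps and 3.46% of III. Measured against each chromosome's own mean gap, the longest gap was 7.31 times the mean on X and from 9.68 times (III) to 14.2 times (V) on the autosomes. Of all gaps on X, 7.25% exceeded 3 times the mean, against 6.15 to 7.04% on the autosomes, and the coefficient of variation of gaps was 1.17 on X against 1.18 to 1.45.

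The longest empty stretch ran from 105086 to 324032 (219 kb) beside the left end. It held 19 peaks of replicate 1 and 9 of replicate 2, the best of them number 8768 and number 7613, so none was among the first 4966 of its list. The second ran from 3159887 to 3371318 (211 kb) and the fifth longest from 3379426 to 3540884 (161 kb). Only peaks 2719 and 4610 separated those stretches.

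The third longest was at 17184578 to 17392213 (208 kb), near the right end, and the fourth longest at 1128851 to 1302395 (174 kb). Inside the third lay 1 peak of replicate 1 and 3 of replicate 2 that ranked among the first 4966 of their own lists. From the strongest 4966 peaks of replicate 2 alone, the longest gap over 17184578 to 17392213 was therefore 92.4 kb, and that over 3159887 to 3371318 was 125 kb. From replicate 1 alone they were 200.5 and 211 kb long. The gaps over the other 3 stretches were between 161 and 234 kb in both replicates.

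Replicate peaks were not absent from these stretches. The 5 together (973 kb, 5.49% of X) held 111 peaks of replicate 1, or 114 per Mb, and 93 of replicate 2, or 95.6 per Mb. Outside the combined sites, X as a whole had 151 replicate 1 peaks per Mb and 156 replicate 2 peaks per Mb. In the first stretch 2 of its 19 replicate 1 peaks overlapped a replicate 2 peak, and between 3379426 and 3540884 it was 7 of 28. Over all X peaks of replicate 1 the share was 45.1%, but that includes the combined sites, which nearly all have a peak in both replicates. The stretches were chosen for holding no combined site, so a low shared count there is built in.

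Nearly all X sites had a peak in both replicates, which is no independent test of a list made by combining them. An overlapping peak was found for 588 of the 589 X sites in replicate 1 and for 586 in replicate 2, and 585 had one in both. The 4 exceptions were weak sites of 330 bp. Peak 4666, at 2215186 to 2215515, lacked a replicate 1 peak and was number 3421 in replicate 2. Peaks 4430 (14115483 to 14115812), 4660 (4818251 to 4818580) and 4963 (3772345 to 3772674) lacked a replicate 2 peak and were numbers 3563, 3806 and 3956 in replicate 1. Peak 4963 is also the weakest X site of the list.

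For the 518 X sites that overlapped a single peak in each replicate, and no other site shared it, numbers in both replicates followed each other with Spearman's rho of 0.83. The value over 3889 autosomal sites was 0.92. Both are descriptions over sites that share their libraries, and X has few of the strongest sites. Typical distances were close: the median ratio of the larger to the smaller number was 1.23 on X and 1.22 on the autosomes. More than a 2-fold difference was seen at 33 X sites (6.37%) and at 4.73% of autosomal sites, with 6.23% on V. By rank, the shares were 1.64% on X and 4.89% on the autosomes among peaks 1 to 1000. They were 0% and 0.602% among peaks 1001 to 2000, and 3.45% and 1.29% among peaks 2001 to 3000. Among peaks 3001 to 4000 they were 8.20% and 3.88%, and from peak 4001 on 14.8% and 14.7%. Within peaks 1 to 1000 rho was 0.80 on X (n = 61) and 0.91 on the autosomes (n = 900). Among peaks 1001 to 2000 rho was 0.34 and 0.51, and among peaks 2001 to 3000 it was -0.11 and -0.0055. It was -0.37 and -0.36 among peaks 3001 to 4000, and -0.64 and -0.62 from peak 4001 on. These ranges are cut by combined number, which rests on both replicates, and its part in rho was not tested.

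Of those 33 X sites, 24 ranked higher in replicate 1 and 9 in replicate 2, and 32 had a width of exactly 330 bp. They were spread as 10 in the left part of X, 11 in the middle and 12 on the right. The same split for autosomal sites is not given here. The highest number of an overlapping peak was 8468 in replicate 1 and 18657 in replicate 2 on X, and 13584 and 21537 on the autosomes. The width of 330 bp is usual at low ranks, with 98.6% of X sites among peaks 3001 to 4000 and 99.3% from peak 4001 on. The 5 of the 33 X sites with the greatest differences were all stronger in replicate 1. The first was peak 4911 at 5475158 to 5475487, number 3733 in replicate 1 and 18657 in replicate 2. Next came peak 3564 at 10679198 to 10679527 (2827 and 13519) and peak 4107 at 8911071 to 8911400 (3681 and 15855). Peak 4633 at 9431001 to 9431330 (4180 and 15553) and peak 2729 at 11522076 to 11522405 (2036 and 7300) followed.

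**Figure D4:**
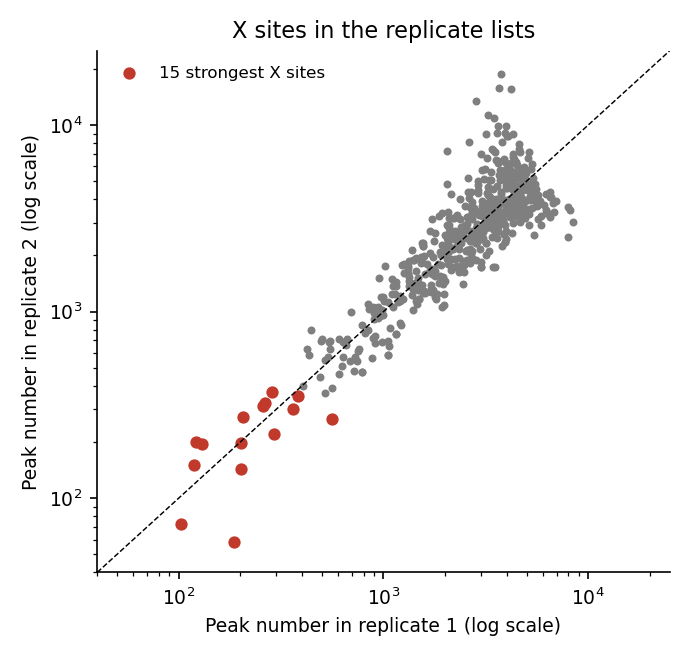
Number of the overlapping peak in replicate 1 (x axis) and in replicate 2 (y axis), both log scales, for the 585 X sites found in both; red points are the 15 strongest X sites and the dashed line marks equal numbers. The red points lie on both sides of the line, and the sites farthest from it have low numbers in replicate 1 and high ones in replicate 2.

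Within a range of numbers, no difference between X and autosomal peaks passed a test in how often they were found in the other replicate. In replicate 1 all 66 X peaks among the first 1000, all 99 of the next 1000 and all 137 of those numbered 2001 to 3000 had a partner in replicate 2, against 100%, 100% and 99.4% on the autosomes. Among peaks 3001 to 4000 the shares were 135 of 141 on X (95.7%) and 98.1% on the autosomes, and among peaks 4001 to 5000 they were 127 of 139 (91.4%) and 91.0%. In replicate 2 the X shares over the same ranges were 100%, 100%, 98.4%, 97.4% and 89.7%, against 100%, 99.9%, 99.7%, 98.3% and 90.2% on the autosomes. None of the 10 differences passed Fisher's exact test (lowest adjusted p = 0.557 in replicate 1 and 0.621 in replicate 2). With a reciprocal overlap of 50% instead of 1 bp, 4 did. Among the first 1000 peaks, X minus autosomes was -6.29 points in replicate 1 and -4.12 in replicate 2 (adjusted Fisher exact p = 0.00903 and 0.0385). X was higher among peaks 2001 to 3000, by 11.2 and 11.6 points (adjusted Fisher exact p = 0.000124 and 0.00239), where replicate 2 had been at -1.24 points with 1 bp. A reciprocal overlap depends on peak width, and the part of widths in these 4 differences was not tested.

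X peaks of 1 replicate that the combined list lacks began at number 3443 in replicate 1 and 3000 in replicate 2. Autosomal ones began at numbers 3281 and 2827. The first X peak of replicate 2, at 10395629 to 10395958, had no partner in replicate 1. The first X peak of replicate 1, at 7153495 to 7153818, was number 4825 in replicate 2. Among the 4966 strongest of each replicate, 540 of the 578 X peaks of replicate 1 (93.4%) and 502 of the 571 of replicate 2 (87.9%) overlapped a combined site. The autosomal shares were 93.9% and 89.7%.

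Among peaks 2001 to 3000, X sites had the most common width, 330 bp, more often than autosomal sites. So many combined peaks have exactly this width that it was taken as a fixed width and not as a measured extent, although no source states it. On X 407 of 589 sites (69.1%) were of exactly 330 bp, 156 were narrower and 26 wider, against 50.6% of autosomal sites at that width. X sites rank lower and weak sites have the fixed width, so the comparison was made within ranges of rank. Among peaks 2001 to 3000, 109 of 129 X sites (84.5%) had the fixed width, against 523 of 871 autosomal sites (60.0%; odds ratio 3.63, two-sided Fisher exact p adjusted over 5 rank ranges = 1.27e-07). The median number in that range was 2482 on X and 2504 on the autosomes.

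Among peaks 1001 to 2000 the shares were 12.4% on X and 6.26% on the autosomes (adjusted Fisher exact p = 0.0633), and in the other ranges both shares were at most 0.750% or at least 95.2%. In 20 steps of 250 peaks, the X share was above the autosomal one in 12, below it in 6 and equal in 2, and the 8 steps from 1501 to 3500 were all above. In the replicates' own lists the change to the fixed width came earlier in rank, and there X stood apart among peaks 1001 to 2000. In replicate 1, 42.4% of X peaks had its fixed width of 324 bp, against 21.6% on the autosomes, and in replicate 2, 79.6% had the width of 330 bp, against 57.8% (adjusted Fisher exact p = 9.33e-05 and 3.25e-05). Among peaks 2001 to 3000 the difference was 11.9 points in replicate 1 (adjusted Fisher exact p = 0.000224) and 1.09 points in replicate 2 (1.00). This comparison was chosen after the widths had been seen.

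**Figure D5:**
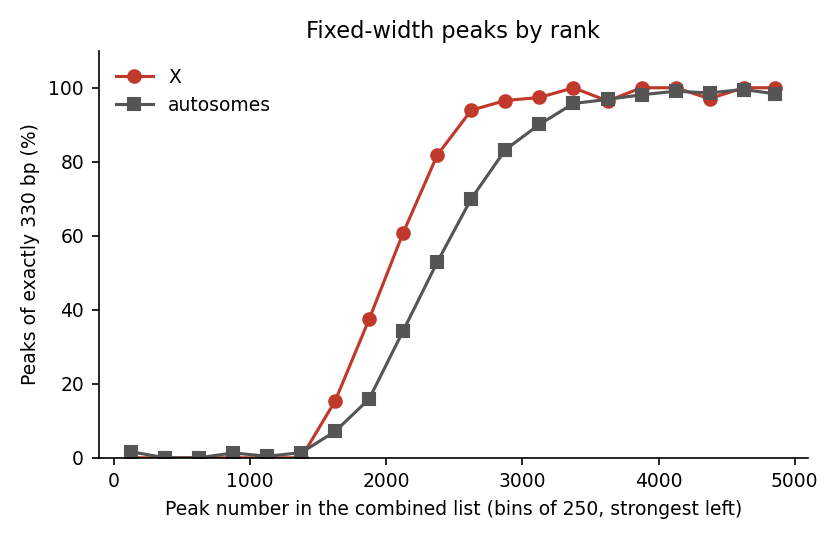
Percent of combined peaks of exactly 330 bp (y axis) by peak number in steps of 250 (x axis), for X (circles) and the autosomes together (squares). The X line climbs earlier, with 81.8% against 52.9% in peaks 2251 to 2500, and both lines stay at 95.8% or more from peak 3251 on.

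No difference in the share of wide sites passed a test. Of the 67 X sites among the first 1000, 21 were wider than 330 bp (31.3%), against 202 of 933 autosomal sites (21.7%), a difference that did not pass (two-sided Fisher exact p adjusted over 5 ranges = 0.330). Over all ranks 26 of 589 X sites (4.41%) and 219 of 4377 autosomal sites were wider, a difference of -0.589 points (Fisher exact p = 0.612). That comparison does not hold rank. Most wide sites, 21 on X and 202 on the autosomes, lay in the first 1000 peaks, where X has 67 of its 589 sites and the autosomes 933 of 4377.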

How the data were processed

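Per the file headers, the 3 peak lists that the authors deposited use build WS220 of WormBase: 1 for each of 2 EFL-1 ChIP samples and 1 combined. Replicates 1 and 2 are numbered by the sample titles; their own files bear the numbers 2 and 3. Lines name SPP and IDR; their versions and thresholds, the aligner and how inputs were used are not given in the sources here. The score the authors deposited has no stated unit and is the same in every combined peak, so rank was the number in the peak's name. Analysis used Python 3.11.15, numpy 2.4.6, pandas 2.3.3, scipy 1.17.1 and matplotlib 3.10.9. A peak lies where its centre lies; a chromosome's extent is the highest peak end in any list. Lists were matched by an overlap of at least 1 bp, taking the lowest-numbered partner. Tests were two-sided exact binomial and Fisher tests with Benjamini-Hochberg adjustment, and intervals are exact 95% (Clopper-Pearson); both cover counting error only. The sites named are the 15 strongest, 5 longest gaps, 5 chains with the most sites (ties by strongest peak), 5 most unequal between replicates, and those missing from a replicate; others were named after their values were seen. The members and rules were chosen with earlier results of these data known. Gene names and sequence motifs were planned but not used here, because no annotation or genome of WS220 was at hand. Alternatives are given under the closing section.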

Additional observations from a re-analysis of the deposited data

How the results depend on the processing

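Of the 92 alternative values, 68 kept their direction and side of the threshold or their size, and 11 turned direction; the value for wide sites over all ranks is counted once for each of 5 ranges. The alternatives added after the data were seen were the weaker 50% of the list, peaks within 10 kb counted once, the full replicate lists and those for fixed widths. The middle-third share of X stayed uncalled throughout, and in the full list of replicate 2 it crossed an even share (33.7%). The odds ratio of strength turned to 0.80 with the strongest 148 sites. X against the autosomes lost calls in the stronger 50% of the list (II, -4.01 points; IV, -7.44) and with peaks within 10 kb counted once (I, -5.47; II, -7.33; III, -6.58), a count with fewer peaks. Leaving out a replicate changed no call there. At the fixed width, peaks 2001 to 3000, single replicates gave differences of 1.09 to 11.9 points, against 24.5. With a reciprocal overlap of 50%, X differed from the autosomes in the share found in the other replicate, by -6.29 points (replicate 1, peaks 1 to 1000), 11.2 (replicate 1, 2001 to 3000), -4.12 (replicate 2, 1 to 1000) and, reversed, 11.6 (replicate 2, 2001 to 3000). Other turns of direction passed no test: -6.07 and -0.77 (replicate 2, 1001 to 2000) and 2.70 and 0.23 (replicate 2, 3001 to 4000), each with the reciprocal overlap and with centres within 200 bp, and -0.589 for wide sites over all ranks, against 4 of 5 ranges. The value for wide sites over all ranks does not hold rank, and the causes of these turns were not tested. X regions with a neighbour within 2 kb were 20.5% and within 10 kb 55.7%; chains of 3 or more numbered 7 and 54 at those distances, as the wider or narrower limit makes them. The longest gap was 234 kb in replicate 1 and 232 kb in replicate 2, given from their strongest peaks, and its place changed. In replicate 1 it lay over 3379426 to 3540884, and in replicate 2 over none of the 5 named stretches. The gap over 105086 to 324032, the longest in the combined list, came second in both replicates, at 219 kb. No paired analysis was possible because each result is a comparison of chromosomes or lists, not of sample groups, and inputs were not used. Depth is unknown, so a weak site missing from a replicate may be unbound or undetected there.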
